A study of Mus musculus with 2 samples.

Results

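The 7 genes described here are Fev and the mouse genes for making and storing serotonin, namely Gch1, Tph1, Tph2, Ddc, Slc18a1 and Slc18a2. They were found by name in both count tables, which list 25507 gene symbols each. The set was put together from their measured levels across these cells, so their levels, detection and overlap with Fev are a description and carry no test.

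The cells came from the pancreas of wild-type mouse embryos staged E14.5 (by embryonic day) and were profiled by droplet single-cell RNA sequencing (inDrop). Endocrine cells had been enriched by flow cytometry on Ngn3eGFP, keeping low and high signal. The labels give the genotype as wild type, do not describe the reporter allele, and do not say whether the 2 libraries came from separate embryos or litters. A p-value here therefore measures only how far differences between groups of cells vary between these 2 libraries, pooled over all groups of a fit. That spread may be technical. Of 535 and 1100 barcodes, 515 and 1070 cells were kept in library 1 and library 2, with a median of 3225 and 2847.5 unique molecular identifiers (UMIs, each a counted molecule) per cell, and 3 barcodes occurred in both libraries.

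Serotonin is made from tryptophan by a hydroxylase, Tph1 or Tph2, which sets the rate of the pathway and needs tetrahydrobiopterin, a cofactor whose synthesis starts with Gch1. Ddc then removes a carboxyl group, and Slc18a1 or Slc18a2 loads the amine into vesicles. Fev is an ETS-family transcription factor that switches on genes of this pathway, though not every form named here, in serotonergic neurons of the hindbrain. In the fetal pancreas it marks hormone-low endocrine precursors that come after the Neurog3 stage.

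Cells were grouped by raw UMIs of marker genes, so each group is a gate and not a cluster, and the sort sets which cells are present. Library 1 and library 2 held 107 and 211 Spp1+ trunk-like cells, and 115 and 182 Neurog3+ cells, which carry the transcription factor that starts endocrine differentiation. They held 82 and 121 Chgb+ hormone-low cells, with at least 5 UMIs of the granule protein gene Chgb, under 3 of Neurog3, under 5 of Gcg and under 20 of Ins1 and Ins2 together. There were 29 and 57 Gcg+ cells and 40 and 100 insulin-high cells. Cells past both the Neurog3 and the Chgb gate numbered 8 and 13, and cells past no gate, called the rest, 116 and 252. An acinar set (11 and 86 cells) and a macrophage set (7 and 48 cells) show how many UMIs free RNA can leave in cells of other lineages. The sorted cells were thus of several kinds. Levels are in CPM, the UMIs of a gene scaled to the UMI total of its group in 1 library, and genes are compared with themselves across groups, not with each other.

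The stretch before the start of transcription is shown for Fev, Gch1 and Ddc, the members that were highest or near their highest in the same group, from the RefSeq windows on GRCm38.p6. Each runs 5′ to 3′ on the strand of its gene and ends just before the annotated exon. Capitals mark GGAA, the core that ETS factors bind, or TTCC where it lies on the other strand. They also mark TAATTA, a homeodomain core, and TAAGTG, a core of NK2-class factors such as Nkx2-2, written CACTTA on the other strand.
Fev: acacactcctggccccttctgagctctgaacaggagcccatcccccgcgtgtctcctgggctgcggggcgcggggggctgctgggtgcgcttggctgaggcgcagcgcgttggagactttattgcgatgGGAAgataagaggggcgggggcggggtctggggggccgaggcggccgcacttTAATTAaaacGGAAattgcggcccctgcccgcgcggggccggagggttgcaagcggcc
Gch1: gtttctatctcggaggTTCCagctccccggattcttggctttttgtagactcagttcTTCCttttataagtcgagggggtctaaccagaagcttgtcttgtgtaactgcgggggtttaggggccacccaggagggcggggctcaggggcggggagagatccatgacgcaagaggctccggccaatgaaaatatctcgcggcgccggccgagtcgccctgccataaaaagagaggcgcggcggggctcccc
Ddc: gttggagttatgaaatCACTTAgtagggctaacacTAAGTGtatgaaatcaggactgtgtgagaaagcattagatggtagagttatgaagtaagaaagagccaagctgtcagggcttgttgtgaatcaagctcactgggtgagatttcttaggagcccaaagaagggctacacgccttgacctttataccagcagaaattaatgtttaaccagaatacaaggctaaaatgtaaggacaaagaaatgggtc
The Fev stretch lies at chr1:74885420-74885658, that of Gch1 at chr14:47189414-47189663 and that of Ddc at chr11:11898145-11898394, each on the minus strand. For Fev 239 bases are shown, since 11 bases of the window lie in an annotated exon.

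RefSeq windows matched 6 of the 7 genes, in 8 windows of 250 upstream bases. The motifs were chosen with the data known and searched on both strands. The Fev window holds 2 GGAA matches, 121 and 59 bases upstream of the start, with TAATTA between them at 69 bases. The Gch1 window holds 2 GGAA matches, at 234 and 193 bases, both on the other strand. The Ddc window printed holds no GGAA and 2 TAAGTG matches, at 234 and 215 bases, while a second RefSeq start of Ddc has 3 GGAA matches. GGAA is found in 93.4% of all 32851 windows, TAATTA in 4.84% and TAAGTG in 7.92%. The longer ETS word CCGGAA, which contains GGAA and is in 12% of windows, is in none of the 8. The E-box CANNTG, a word bound by Neurog3-type factors and present in 66.2% of windows, is found among the 8 only in that of Slc18a2, as CAGCTG, a form of it that 13% of windows hold. A match describes the letters of the window and no more.

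Fev was concentrated in Chgb+ hormone-low cells. The gene spans chr1:74881509-74885419 on the minus strand (GENCODE M21, GRCm38), and 341 and 559 Fev UMIs were counted in the kept cells. Of these, 49.9% and 50.3% lay in Chgb+ hormone-low cells, which made up 15.9% and 11.3% of cells. The level there was 589 CPM in library 1 and 717 CPM in library 2, a mean of 653 ± 90.4 CPM (SD, n = 2 libraries). Their 95% Poisson intervals, 504 to 685 and 636 to 806 CPM, overlap, and like all intervals below they cover counting error only.

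Before that gate the level was low. Spp1+ cells held 36.3 and 21.5 CPM of Fev, and Neurog3+ cells 42.9 and 96.7 CPM. Within Neurog3+ cells the message came from few cells: 1 cell gave 8 of the 17 UMIs of library 1, and 1 cell gave 11 of the 52 UMIs of library 2. The level in Chgb+ hormone-low cells was 13.7 and 7.42 times that in Neurog3+ cells. In the few cells with both Neurog3 and Chgb it was 1477 CPM in library 1, where 1 cell gave 19 of 47 UMIs, and 587 CPM in library 2. Those 8 and 13 cells are too few to set against Chgb+ hormone-low cells.

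After that gate Fev was lower again. Gcg+ cells held 131 and 77.9 CPM, or 0.22 and 0.11 times the Chgb+ hormone-low level. Insulin-high cells held 33.2 and 109 CPM, or 0.06 and 0.15 times. The rest held 220 and 190 CPM, with up to 16 and 13 UMIs in a cell. Among the 6 groups with at least 20 cells in each library, both values of Chgb+ hormone-low cells lay above every other value and both values of the rest lay next. The values of Neurog3+, Gcg+ and insulin-high cells overlap, and no order among them can be read. By ratio the libraries disagree most, among these 6 groups, for insulin-high cells, whose 95% intervals of 12.2 to 72.3 and 77.8 to 150 CPM do not overlap. The intervals of Neurog3+ cells, at 42.9 and 96.7 CPM, do not overlap either.

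The share of cells with a Fev UMI followed the level. It was 61.0% and 59.5% in Chgb+ hormone-low cells (exact 95% binomial intervals 49.6% to 71.6% and 50.2% to 68.3%). It was 8.70% and 9.89% in Neurog3+ cells, 34.5% and 17.5% in Gcg+ cells and 15% and 22.0% in insulin-high cells. Because depth differs between groups, each cell was also thinned to 1500 UMIs, which leaves out 6 and 8 Chgb+ hormone-low cells and 6 and 10 Neurog3+ cells. The thinned share was 44.3% and 47.6% in Chgb+ hormone-low cells and 4.18% and 7.31% in Neurog3+ cells. As background, 1 of 11 and 5 of 86 acinar-set cells had a Fev UMI at a median depth of 6209 and 4386.5 UMIs, against 3362.5 and 3107 UMIs in Chgb+ hormone-low cells. Thinned, the acinar share was 1.15% and 1.90%, and that of Spp1+ cells 5.11% and 2.39%. In library 1 the Neurog3+ share thus did not stand above the Spp1+ share, and in library 2 it did.

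**Figure D1:**
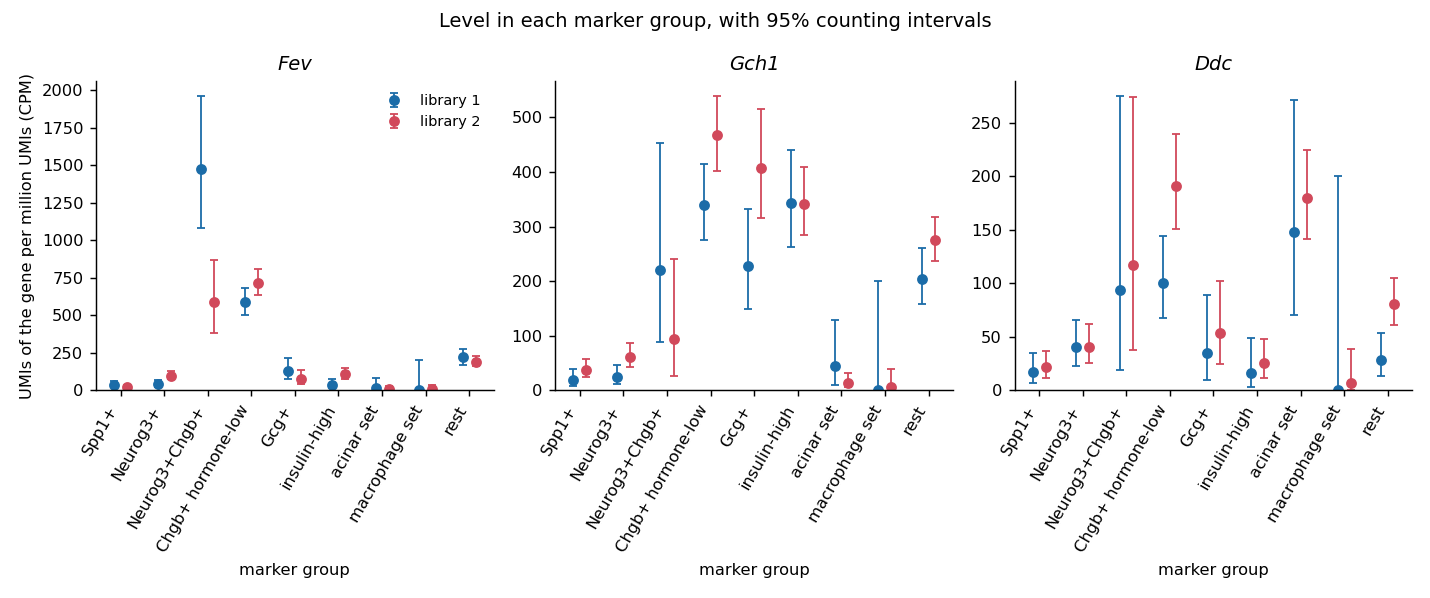
Level of Fev, Gch1 and Ddc (CPM, linear axes that differ between panels) in the marker groups, 1 point per library with its 95% Poisson counting interval. Fev is at 589 and 717 CPM in Chgb+ hormone-low cells and at 131 CPM or less in Gcg+ and insulin-high cells, Gch1 is between 227 and 467 CPM in all 3 of these groups, and Ddc is at 148 and 180 CPM in the acinar set.

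Gch1, the entry enzyme of cofactor synthesis, was high in Chgb+ hormone-low cells and in hormone cells. It spans chr14:47153895-47189413 on the minus strand and gave 279 and 628 UMIs. Its level was 19.4 and 38.1 CPM in Spp1+ cells, 25.2 and 61.4 CPM in Neurog3+ cells, and 340 and 467 CPM in Chgb+ hormone-low cells (403 ± 90.0 CPM, SD, n = 2 libraries). Both values of the last group lie above all 4 of the earlier groups, and the ratio to Neurog3+ cells was 13.5 and 7.61. The 8 and 13 cells past both the Neurog3 and the Chgb gate held 220 and 93.9 CPM, from 7 and 4 UMIs. Both values are below those of Chgb+ hormone-low cells, and the 95% interval in library 1, 88.4 to 453 CPM, includes the 340 CPM found there. Gcg+ cells held 227 and 407 CPM and insulin-high cells 343 and 342 CPM. The hormone-cell values overlap those of Chgb+ hormone-low cells, with ratios of 0.67 and 0.87 for Gcg+ cells and 1.01 and 0.73 for insulin-high cells.

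Detection of Gch1 showed the same plateau. A Gch1 UMI was found in 48.8% and 63.6% of Chgb+ hormone-low cells, 48.3% and 47.4% of Gcg+ cells and 52.5% and 57.0% of insulin-high cells. Thinned, these shares were 32.4% and 44.0%, 25.9% and 33.9%, and 33.4% and 34.1%. Neurog3+ cells had thinned shares of 2.91% and 7.60%. The acinar set had 4.90% and 2.67% thinned, and 1 of 48 macrophage-set cells of library 2 held a Gch1 UMI, so the Neurog3+ share of library 1 is below the acinar background and that of library 2 above it.

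Ddc, the decarboxylase, which also serves the making of dopamine and other amines, had fewer UMIs and was also found in another lineage. It spans chr11:11814101-11898144 on the minus strand and gave 81 and 265 UMIs. Its level was 17.0 and 21.5 CPM in Spp1+ cells and 40.3 and 40.9 CPM in Neurog3+ cells. It was 101 and 191 CPM in Chgb+ hormone-low cells (146 ± 64.3 CPM, SD, n = 2 libraries), 2.49 and 4.68 times the Neurog3+ level. Gcg+ cells held 34.9 and 53.9 CPM and insulin-high cells 16.6 and 25.2 CPM, all below both Chgb+ hormone-low values, so Ddc resembled Fev and not Gch1 in hormone cells.

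The acinar set held 148 and 180 CPM of Ddc (164 ± 22.5 CPM, SD, n = 2 libraries), and 63.6% and 38.4% of its cells had a Ddc UMI. Thinned to equal depth, 20.8% and 18.3% of acinar-set cells and 13% and 16.7% of Chgb+ hormone-low cells had one. The acinar set therefore cannot serve as background for this gene. In the macrophage set 0 of 7 and 1 of 48 cells had a Ddc UMI. In the rest of library 2, at 80.5 CPM against 28.3 CPM in library 1, 1 cell held 16 of the 55 Ddc UMIs.

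The hydroxylases were sparse. Tph1, the form of gut and other peripheral tissues (chr7:46644641-46672537, minus strand), gave 34 and 41 UMIs in all kept cells and never more than 2 in a cell. Chgb+ hormone-low cells gave 7 Tph1 UMIs in each library, 24.3 and 17.9 CPM, against 21.8 and 13.2 CPM in Spp1+ cells. A Tph1 UMI was found in 8.54% and 5.79% of Chgb+ hormone-low cells. In the acinar set of library 1 it was found in 3 of 11 cells, and in the macrophage set of library 2 in 6 of 48, or 12.5%, at a median depth of 2989.5 UMIs. Thinned, the share was 4.50% and 2.29% in Chgb+ hormone-low cells, 17.6% and 0.766% in the acinar set, and 0.0% and 7.20% in the macrophage set. It thus lay below 1 of these sets and above the other in each library, and the 17.6% rests on 3 cells. Tph2, the neuronal form (chr10:115078641-115185022, minus strand), gave 11 and 30 UMIs, of which 2 and 6 were in Chgb+ hormone-low cells. Its share there, 2.44% and 4.96%, is near the 9.09% and 4.65% of the acinar set, and thinned it was 1.37% and 1.68% against 2.70% and 1.03%. For both hydroxylases, a level that follows Fev was not detectable at this depth.

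The vesicular transporters did not follow Fev within the precision of the counts. Slc18a1, the form typical of endocrine cells (chr8:69037711-69089235, minus strand), gave 59 and 70 UMIs. Its level in Chgb+ hormone-low cells, 27.7 and 23.0 CPM, was close to that in Spp1+ cells, 26.6 and 23.2 CPM, and to that in the rest, 37.7 and 42.4 CPM. Its highest level, 71.9 CPM in insulin-high cells of library 1, stood against 11.2 CPM in library 2, and 1 cell gave 5 of its 13 UMIs. A Slc18a1 UMI was seen in 0 of 7 and 0 of 48 macrophage-set cells, which allows a share of up to 42.9% and 6.25%. It was seen in 7.32% and 6.61% of Chgb+ hormone-low cells and in 9.09% and 8.14% of acinar-set cells. Thinned, the share was 3.44% and 3.72% in Chgb+ hormone-low cells, 1.15% and 2.22% in the acinar set and 4.52% and 3.20% in Spp1+ cells, so it did not stand above Spp1+ cells in both libraries. Slc18a2, the neuronal form (chr19:59260896-59296012, plus strand), gave 26 and 27 UMIs, with 3 in Chgb+ hormone-low cells of each library. It overlaps the antisense gene Gm29261, and whether counting used the strand is not given in the sources used here.

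**Figure D2:**
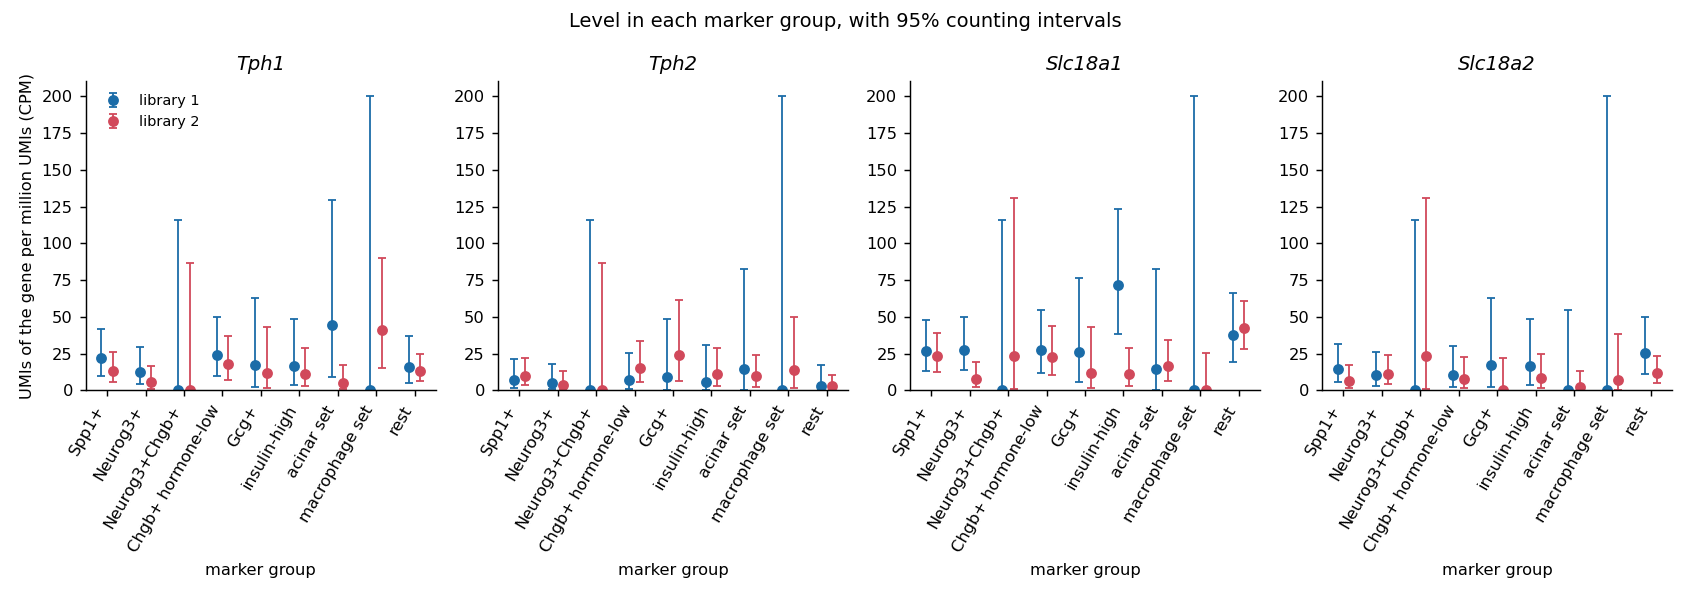
Level of Tph1, Tph2, Slc18a1 and Slc18a2 (CPM, linear axes) in the marker groups, 1 point per library with its 95% Poisson counting interval. Chgb+ hormone-low cells sit at 27.7 CPM or less for all 4 genes and have intervals that overlap those of Spp1+ cells.

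Ordered by Chgb UMIs, Fev and Gch1 were higher in every bin with Chgb than in cells without it. This ordering used the 428 and 779 cells outside the hormone, acinar and macrophage gates. Fev was at 51.4 and 70.1 CPM in cells with no Chgb UMI and at 258 CPM in both libraries with 1 to 4. With 5 to 9 Chgb UMIs it was at 920 and 538 CPM, with 10 to 19 at 500 and 634 CPM, and with 20 or more at 679 and 905 CPM. Cells just inside the gate of 5 UMIs held more Fev than cells just short of it in both libraries. Gch1 went from 49.2 and 84.4 CPM without Chgb to 178 and 337 CPM with 1 to 4 UMIs, and reached 366 and 542 CPM with 20 or more. Ddc was at 25.2 and 34.7 CPM without Chgb and at 148 and 172 CPM with 10 to 19 UMIs. With 20 or more Chgb UMIs the libraries parted for Ddc, at 59.7 CPM in library 1 and 185 CPM in library 2.

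Ordered by Neurog3 UMIs, the same cells held least Fev at the top. Fev was at 18.9 and 25.7 CPM in cells with 12 or more Neurog3 UMIs, at 166 and 141 CPM with 6 to 11, at 290 and 207 CPM with 3 to 5, and at 190 and 289 CPM with 1 to 2. Cells with no Neurog3 UMI held 267 and 244 CPM, so below 6 UMIs the bins had no common order in the libraries. Gch1 was at 18.9 and 19.3 CPM with 12 or more Neurog3 UMIs and was highest, at 171 and 247 CPM, in cells with none. Raw UMIs of a marker rise with the depth of a cell, and that part of these orders was not tested.

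**Figure D3:**
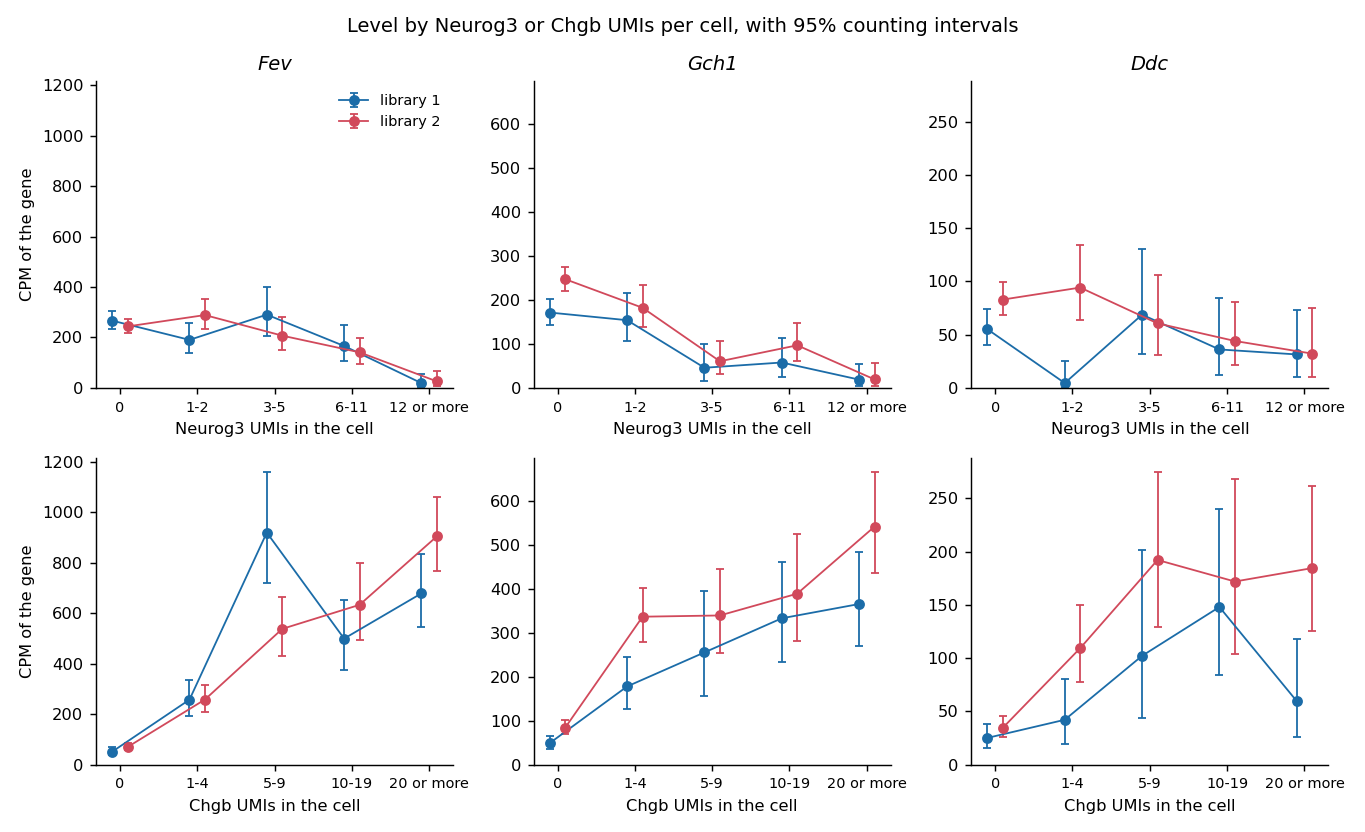
Level of Fev, Gch1 and Ddc (CPM) in cells binned by raw Chgb UMIs and by raw Neurog3 UMIs, per library, with 95% Poisson intervals. Fev goes from 51.4 and 70.1 CPM without Chgb to 500 CPM or more past 5 Chgb UMIs, and is at 18.9 and 25.7 CPM in cells with 12 or more Neurog3 UMIs.

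Over all cells, Gch1 was found more often in cells with Fev than in cells without. In library 1, 39.0% of the 118 cells with a Fev UMI and 19.1% of the 397 without had a Gch1 UMI, and in library 2 it was 60.1% of 188 and 21.3% of 882. Thinned, the shares were 26.5% against 12.9% and 42.9% against 15.4%. Within Chgb+ hormone-low cells the libraries differed: 25 of 50 against 15 of 32 cells in library 1, and 51 of 72 against 26 of 49 in library 2. Thinned, these were 31.7% against 33.0% and 49.6% against 38.9%, so library 1 showed no surplus of Gch1 in cells with Fev once the gate was fixed. In the rest, Gch1 was found in 47.8% against 19.4% and in 65.2% against 29.1% of cells. Thinned, these were 30.2% against 16.7% and 52.6% against 22.9%. Exact 95% intervals of the unthinned shares narrowly overlap in library 1 and do not in library 2. They cover the counting of cells within 1 library and are no test.

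For Ddc the libraries went opposite ways inside the Chgb gate. Over all cells, 13.6% against 9.82% and 24.5% against 9.98% of cells with and without Fev had a Ddc UMI. Within Chgb+ hormone-low cells it was 18.0% against 28.1% in library 1 and 33.3% against 16.3% in library 2. The sparse members differed in direction from gene to gene, and before thinning Tph2 and Slc18a1 also differed between libraries. Over all cells with and without Fev, Tph1 was found in 8.47% against 6.05% and 5.85% against 3.29%, which thinned to 2.49% against 3.01% and 2.32% against 1.70%. Tph2 was found in 0.847% against 2.52% in library 1 and 5.32% against 2.15% in library 2. Thinned, Tph2 was at 0.739% against 0.858% and 1.08% against 1.42%. Slc18a1 was found in 13.6% against 7.30% and 4.26% against 6.69%, and Slc18a2 in 4.24% against 4.28% and 1.60% against 2.49%. Thinned, Slc18a1 was at 4.92% against 3.94% and 2.65% against 3.03%, and Slc18a2 at 1.14% against 1.85% and 0.280% against 1.25%. Slc18a2 was thus lower with Fev in both libraries, from only 5 and 3 cells that held both. Cells with Fev were deeper: in Chgb+ hormone-low cells the median was 3574.5 and 3516.5 UMIs with Fev and 2949 and 2740 UMIs without.

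Pyy, a peptide hormone gene, was counted in the same cells. The gate of Chgb+ hormone-low cells limits Gcg, Ins1 and Ins2 only, and they held Pyy at a mean of 1630 ± 614 CPM (SD, n = 2 libraries). Among them, a Pyy UMI was found in 52.0% of cells with Fev against 46.9% without in library 1. In library 2 it was 45.8% against 46.9%. Thinned, these were 35.9% against 38.2% and 31.6% against 42.3%, so this group showed no surplus of Pyy with Fev at equal depth. In the rest, a Pyy UMI was found in 73.9% and 63.0% of cells with Fev and in 37.6% and 53.9% of cells without, and the intervals of the latter pair overlap in library 2 (47.5% to 76.8% against 46.8% to 60.8%). Thinned, these were 72.0% against 37.5% and 59.4% against 51.8%. As background, 45.5% and 25.6% of acinar-set cells had a Pyy UMI, or 15% and 10.4% thinned. The ghrelin gene Ghrl, which marks epsilon cells, was found in 17.4% against 15.1% and in 21.7% against 11.7%.

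**Figure D4:**
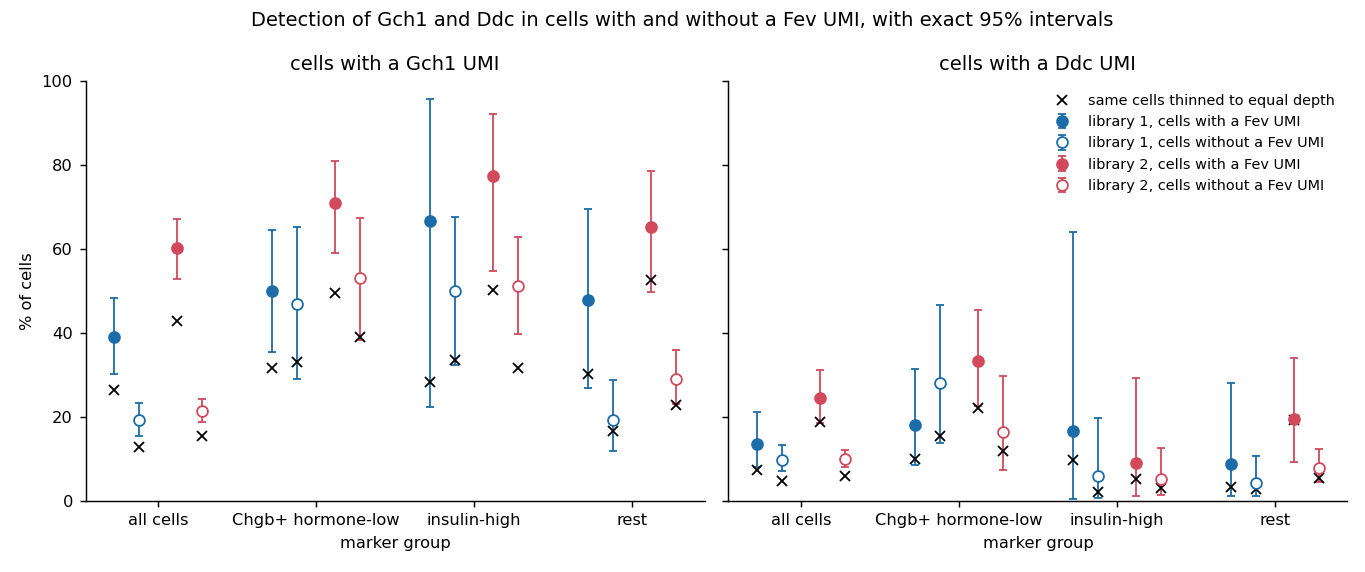
Share of cells (%) with a Gch1 or a Ddc UMI among cells with at least 1 Fev UMI and among cells with none, per library, with exact 95% binomial intervals; crosses are the same cells thinned to 1500 UMIs. Over all cells Gch1 is at 39.0% against 19.1% and 60.1% against 21.3%, while within Chgb+ hormone-low cells of library 1 it is found in 25 of 50 against 15 of 32.

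Markers of cells that hold serotonin elsewhere were listed beside these levels. The enterochromaffin list (Tac1, Lmx1a, Trpa1, Chga) summed to 967 and 1355 CPM in Chgb+ hormone-low cells, of which Chga alone gave 922 and 1324 CPM, and Trpa1 was at 0 there in both libraries. The mast cell list summed to 111 and 97.0 CPM with Tpsb2 at 0, and the neuron and neural crest list to 201 and 140 CPM. The megakaryocyte list (Pf4, Ppbp, Itga2b, Gp9) was at 41.6 and 35.7 CPM, against 652 and 1194 CPM in the macrophage set. In the macrophage set Ppbp and Gp9 were at 0 in both libraries and Itga2b was at 0 in library 1. The sum of library 1 there is thus Pf4 alone. The delta list differed between libraries, at 267 and 2149 CPM in Chgb+ hormone-low cells. In library 2, 1 cell gave 746 of the 824 Sst UMIs of that group. The part of these cells in the members' levels was not tested.

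The genes whose level over the 6 larger groups was most like that of Fev were named by the lower of 2 Pearson correlations of log2(CPM + 10), one per library, among 11964 genes. They were Lhx1os (0.96), Tekt2 (0.92), Wdfy1 (0.92), Kiss1r (0.90), Slc30a9 (0.90), Suv420h1 (0.88), Bnip3 (0.87) and Serinc1 (0.87). Tekt2, Wdfy1, Kiss1r and Bnip3 overlap genes on the other strand. Lhx1os, a long noncoding RNA, was at 41.6 and 25.5 CPM in Chgb+ hormone-low cells and at 7.56 and 11.2 CPM in Neurog3+ cells. Tekt2 was at 38.1 and 35.7 CPM and Kiss1r at 38.1 and 20.4 CPM in Chgb+ hormone-low cells. In Neurog3+, Gcg+ and insulin-high cells, Lhx1os, Tekt2 and Kiss1r were each under 20 CPM. Of these groups, they passed the filter of at least 20 CPM only where Fev was high. Their likeness is thus partly set by that filter. Wdfy1 was at 153 and 140 CPM and Serinc1 at 260 and 270 CPM in Chgb+ hormone-low cells. The same measure was 0.81 for Ddc, 0.58 for Gch1, 0.60 for Chgb and -0.33 for Slc18a1. With 6 points each and shared gates, these values describe the pattern only, and with Spearman's rho 4 of the 8 names were shared.

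The other genes of the pathway were tested with edgeR's quasi-likelihood test on UMI sums per library and group, with library as a block and Benjamini-Hochberg adjustment at 0.05 over 10958 genes. The members and gating markers were left out of the calls. Values of single genes below are CPM after TMM scaling in library 1 and library 2, and log2 fold changes carry their standard error. The 5 lists hold 80 genes.

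From Spp1+ to Neurog3+ cells, transcription factors shared with serotonergic neurons rose. Over all genes 4.45% were called higher and 3.22% lower. Of 14 such factors 9 were tested and 5 rose, with a median log2 fold change of 0.65 against 0.01 over all genes. Insm1, a zinc finger factor of endocrine cells, went from 62.3 and 126 to 1302 and 1474 CPM, a log2 change of 3.86 ± 0.20 (edgeR adjusted p 1.2e-23). Nkx2-2 rose by 2.65 ± 0.18 on the log2 scale. Lmx1b, a LIM homeodomain factor needed for hindbrain serotonergic neurons, went from 10.4 and 12.8 to 99.7 and 65.9 CPM (2.76 ± 0.51, edgeR adjusted p 7.7e-05). Foxa2 and Nkx6-1 rose by 1.07 ± 0.31 and 0.60 ± 0.18. Both libraries moved the same way for each of the 5.

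In the same step the cofactor list split. Of 9 genes 8 were tested, with a median of -0.76. Qdpr, which recycles the cofactor, rose by 1.16 ± 0.37 (edgeR adjusted p 0.0354), and Spr, which completes its synthesis, fell by 1.26 ± 0.38 (edgeR adjusted p 0.0266). Among the other ETS factors 20 of 25 were tested and 1 was called: Ehf, an epithelial factor, fell by 1.74 ± 0.37. None of 10 tested genes of amine breakdown, uptake and reception was called with edgeR or DESeq2, and 2 had an unadjusted p under 0.05. DESeq2 left 2976 of 10958 genes without an adjusted p in this comparison. The calls of Qdpr, Spr, Foxa2 and Nkx6-1 were lost with DESeq2, and over 9 alternatives their adjusted p ranged from 0.00127 to 0.251.

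From Neurog3+ to Chgb+ hormone-low cells, where Fev, Gch1 and Ddc were higher, amine breakdown genes moved in both directions. Over all genes 4.19% were called higher and 6.42% lower. Maob, a monoamine oxidase, went from 11.1 and 2.12 to 103 and 84.6 CPM, a log2 change of 3.87 ± 0.59 (edgeR adjusted p 8.3e-07). The mitochondrial aldehyde dehydrogenase gene Aldh1b1 went from 172 and 355 to 14.2 and 40.9 CPM (-3.18 ± 0.38, edgeR adjusted p 1.2e-09). Tgm2, a transglutaminase that can couple serotonin to proteins, went from 138 and 155 to 7.12 and 10.9 CPM (-3.95 ± 0.47, edgeR adjusted p 9.5e-10). The other 7 tested genes of this list were not called; Maoa, the other monoamine oxidase, changed by 0.32 ± 0.31 (edgeR adjusted p 0.62). Tgm2 overlaps genes on the other strand.

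Among the factors of serotonergic neurons, 3 of 9 fell at this step and 1 rose. Lmx1b went from 99.7 and 65.9 to 35.6 and 21.8 CPM (-1.53 ± 0.47), Nkx2-2 fell by 1.05 ± 0.17 and Insm1 by 1.17 ± 0.17. Pou3f2, a POU-domain factor, rose by 1.27 ± 0.42 (edgeR adjusted p 0.0392). In the 8 and 13 cells past both gates, which are not in this fit, Lmx1b was at 126 and 164 CPM before TMM scaling, from 4 and 7 UMIs. Qdpr rose again, from 69.2 and 117 to 142 and 213 CPM (0.92 ± 0.32, edgeR adjusted p 0.0458), and 7 other cofactor genes tested were not called. Of the other ETS factors Ets2 rose by 1.05 ± 0.34 and Etv1 by 1.57 ± 0.49, and 18 of 20 were not called. The calls of Qdpr, Lmx1b, Pou3f2, Ets2 and Etv1 were lost with DESeq2, and over 9 alternatives their adjusted p ranged from 0.00064 to 0.289. Nkx2-2 and Qdpr overlap antisense genes.

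In Gcg+ cells, 3 of 9 tested factors of serotonergic neurons were called lower than in Chgb+ hormone-low cells, and none higher. For Gcg+ cells 0.63% of all genes were called higher and 0.611% lower. Nkx6-1, a factor kept in beta cells, went from 480 and 505 to 54.9 and 92.0 CPM (-2.72 ± 0.29, edgeR adjusted p 1.2e-10), Insm1 fell by 1.07 ± 0.21 and Nkx2-2 by 0.76 ± 0.21. No cofactor, breakdown or ETS gene was called with edgeR out of 8, 10 and 20 tested. At an unadjusted edgeR p under 0.05 there were 1, 0 and 4. None was called with DESeq2, which left 6803 of 10958 genes without an adjusted p. At the shares called over all genes, no call among so few genes does not set these lists apart. The Nkx2-2 call was lost under 6 of 9 alternatives, with edgeR or DESeq2 adjusted p from 0.00168 to 0.247, and the Insm1 call without the library block and at lower gates, with adjusted p up to 0.106.

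For insulin-high cells 1.72% of all genes were called higher and 0.739% lower. Maob went further up, from 103 and 84.6 to 470 and 265 CPM (1.92 ± 0.34, edgeR adjusted p 7.2e-05), and Nkx2-2 fell by 0.82 ± 0.19, a call lost with DESeq2 and without the library block (adjusted p up to 0.105). No cofactor or ETS gene was called with edgeR or DESeq2, with 1 of 8 and 4 of 20 at an unadjusted p under 0.05. At the shares called over all genes, this too does not set these lists apart. The Maob call was lost with DESeq2, where the adjusted p was 0.612 (range over 9 alternatives 2.3e-06 to 0.612). Both Gcg+ and insulin-high comparisons use the same Chgb+ hormone-low sums.

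**Figure D5:**
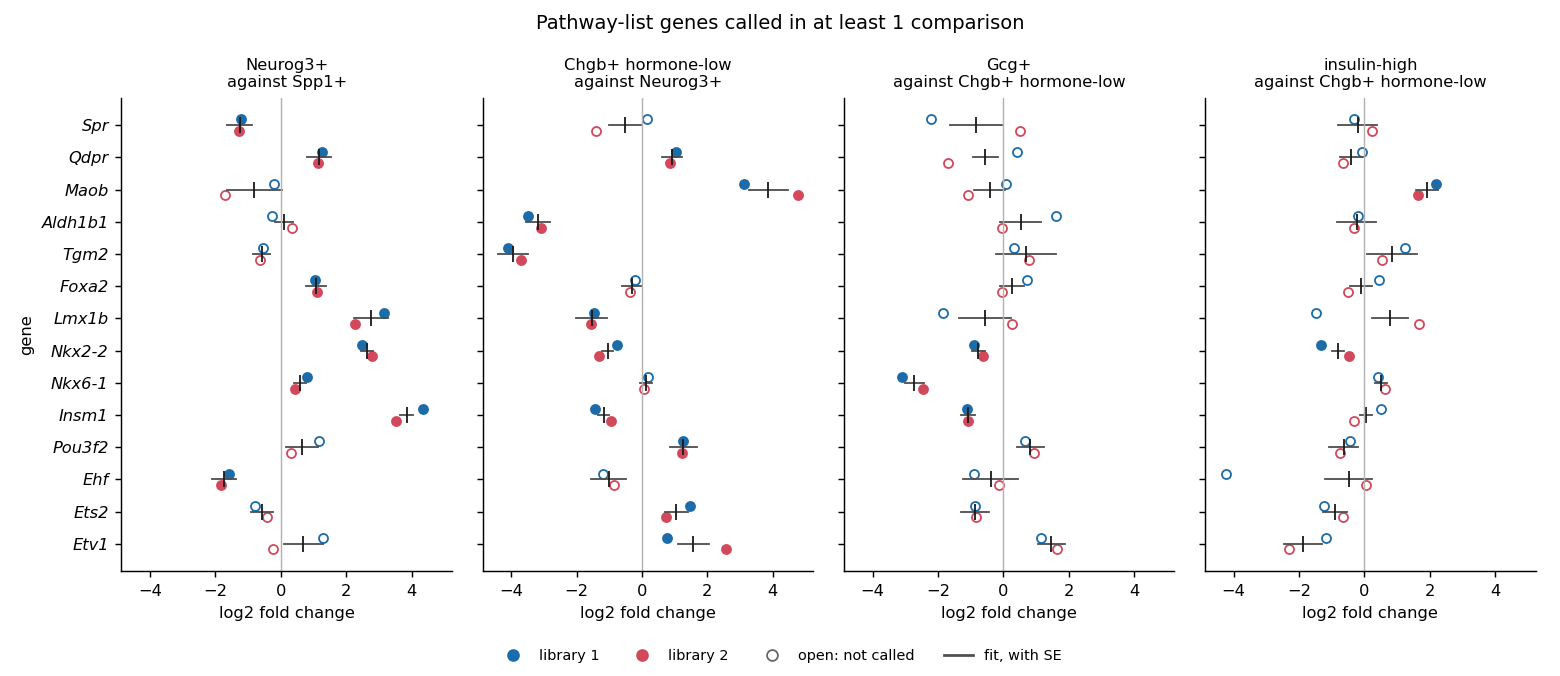
Log2 fold change with its standard error of the pathway-list genes called in at least 1 comparison, with each library's own change as a point, filled where the gene was called. Maob is at 3.87 and Tgm2 at -3.95 from Neurog3+ to Chgb+ hormone-low cells, and Insm1 is at 3.86 from Spp1+ to Neurog3+ cells.

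Genes of other amine transmitters stayed below the count filter: none of 8 was tested in these comparisons. The serotonin transporter Slc6a4 gave 19 and 28 UMIs in all kept cells, and the tyrosine hydroxylase gene Th 18 and 49. The histidine decarboxylase gene Hdc gave 36 and 44 UMIs, and was found in 14.6% and 6.61% of Chgb+ hormone-low cells, against 9.09% and 4.65% in the acinar set. The acinar set is deeper. Thinned, the mean share was 4.98 ± 3.06% in Chgb+ hormone-low cells against 1.45 ± 0.65% in the acinar set (SD, n = 2 libraries).

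Within Chgb+ hormone-low cells, those with a Fev UMI (50 and 72 cells) were compared with those without (32 and 49) in the same kind of fit. No gene was called higher with Fev (0.0% of 9792; 322 at an unadjusted p under 0.05, and 0 with DESeq2), and 0.0511% were lower. At lower gates and with no filter on low counts 2 genes were called higher. On simulated counts, with changes set only in better-counted genes, this split recovered 52% of 4-fold and 11% of 2-fold changes. Smaller differences were thus mostly not detectable here, and recovery for sparser genes was not measured. The clearest of the lower genes was Iapp, the islet amyloid polypeptide that beta cells secrete with insulin. It was at 130 and 309 CPM with Fev and 693 and 1705 CPM without, a log2 change of -2.44 ± 0.22 (edgeR adjusted p 2.8e-12). An Iapp UMI was found in 26.0% and 20.8% of cells with Fev and in 37.5% and 42.9% of cells without, and in library 1 a single cell gave 46.4% of the Iapp UMIs without Fev. The beta list, which holds Iapp, summed to 929 and 1106 CPM with Fev and 1802 and 2576 CPM without. Chgb itself was at 6057 and 6365 CPM with Fev and 4942 and 4917 CPM without.

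The other 4 lower genes rest on few cells. In library 2, 1 cell gave 99.2% of the Clps, 97.2% of the Cpa1 and 92.7% of the Sh3gl3 UMIs of the cells without Fev. Without the 1 cell past the acinar gate, an alternative chosen after seeing the data, 2 genes were called, Iapp (-2.48) and Olfr1442 (-3.93). Olfr1442, an olfactory receptor gene, had 19 UMIs in 10 of 49 cells of library 2 and 8 UMIs in 2 of 32 cells of library 1 without Fev. The Olfr1442 call was lost with DESeq2, at lower and higher gates and with gates on scaled UMIs (adjusted p up to 0.298). Over the marker groups both genes were highest in insulin-high cells. Before TMM scaling Olfr1442 was at 520 and 435 CPM there, in 67.5% and 56.0% of cells, and Iapp at 3448 and 5227 CPM. No gene of the pathway lists was called with edgeR or DESeq2 out of 7 cofactor, 9 breakdown, 9 serotonergic and 18 ETS genes tested, with 2, 1, 1 and 1 at an unadjusted p under 0.05.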

How the data were processed

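Per the file headers and values, the authors deposited a table of raw UMI counts per gene and barcode for each library. The genome build was GRCm38, per the submitters' processing notes, with aligner and counter not given in the sources used here. The members and gene lists were chosen with earlier results of these data known.

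Cells with at least 1000 UMIs, 500 genes and at most 20% mitochondrial UMIs were kept, less 13 and 11 Scrublet doublets (scanpy 1.11.5). Gates were applied in order: macrophage set (6 genes, 10 UMIs), insulin-high (20), Gcg+ (5), Neurog3+ (3) with Chgb+ (5), Chgb+, Neurog3+, acinar set (4 genes, 20 UMIs) and Spp1+ (3). Per-library sums gave CPM with 95% Poisson intervals, and shares exact (Clopper-Pearson) binomial intervals; a count of 0 allows 3 counts. Thinned shares are expected values at 1500 UMIs.

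UMI sums of 6 groups (12 sums, 5 residual degrees of freedom) were tested with edgeR 4.0.16 (TMM, filterByExpr, glmQLFTest) with a library block; DESeq2 1.42.0 was an alternative. The replicate number pairs groups because they are cells of 1 library. In simulated counts, changes were set only in better-counted genes. For Chgb+ hormone-low against Neurog3+ (10190 genes tested), 77% of 4-fold and 27% of 2-fold changes were recovered, with 2.80% false among calls. For the split by Fev (9009 genes tested) it was 52% and 11%, with 5.97% false.

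All 7 members were named in every group, with every called gene of the lists, the 8 genes most like Fev (at least 20 CPM), and up to 6 rises and 6 falls of the Fev split with at least 50 CPM. Of 25507 symbols 95.4% were in GENCODE.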

Additional observations from a re-analysis of the deposited data

How the results depend on the processing

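With DESeq2 in place of edgeR, 332 genes were called for Neurog3+ against Spp1+ (841 with edgeR), 597 for Chgb+ hormone-low against Neurog3+ (1162), 56 for Gcg+ (136) and 120 for insulin-high (269) against Chgb+ hormone-low, and 1 for the split by Fev (5). DESeq2 left 2976 of the genes tested for Neurog3+ against Spp1+ without an adjusted p, and 6803 of those for Gcg+. Without the library block that pairs the groups, the counts were 618, 859, 74, 177 and 5. Lower gates gave 85 for Gcg+. For the split by Fev, no filter on low counts gave 13 (2 higher and 11 lower), gates on scaled UMIs 1, at least 2 Fev UMIs 8, and leaving out the cell past the acinar gate, chosen after seeing the data, 2. In that split Cpa1 reversed to a log2 change of 1.30 at higher gates (edgeR adjusted p 0.855; range over 11 alternatives 1.1e-12 to 0.995). The cause was not tested. For Gcg+ the share of calls that were higher was 50.7%, 32.5% without the filter and 64.3% with DESeq2. Of 28 named calls 11 were kept under every alternative run, 16 were lost with DESeq2 and 9 without the block. The mean level of Fev in Chgb+ hormone-low cells was 641 to 692 CPM over the other gates, depth cut and doublet setting, and 589 to 717 CPM leaving out 1 library; in each of these cell settings it was above every other group of the fit in both libraries. Leaving out a library leaves no residual degrees of freedom, so no counts of calls were made there. Depth limits Tph1, Tph2, Slc18a1 and Slc18a2, at 11 to 70 UMIs per library.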
